A study of Mus musculus with 8 samples.

Results

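A set of 10 genes of the regulated secretory pathway were examined in ribosome-associated mRNA of parvalbumin-expressing (PV+) interneurons of mouse primary somatosensory cortex (S1). The genes were chosen by name for their role in prohormone processing or dense-core vesicle release, and all 10 were found among the 45706 genes measured. They are Pcsk1, Pcsk2, Pcsk1n, Cpe, Pam, Cadps, Cadps2, Ptprn, Ptprn2 and Furin, and all 10 passed the filter on low counts, as did 17495 genes in all.

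The study asked which mRNAs change on ribosomes when PV+ interneurons are made more active. All mice carried the genotype PvalbFlp/+;Neurod6Cre/+ and received on postnatal day 1 the same AAV, a flox-fdio construct that encodes HA-RPL10a, a tagged ribosomal protein for the pulldown, and myc-hM3Dq, a designer receptor activated by clozapine N-oxide (CNO). At an age of 42 to 70 days, 4 samples came from mice given CNO (1 mg/kg in 5 injections over about 48 h) and 4 from mice given vehicle on the same schedule, with the tissue of 4 brains pooled in each sample. Total counts per sample ran from 44064161 to 49413273, so that 3 counts in a library stood for 0.0607 to 0.0681 CPM (counts scaled to library size), and all 10 genes lay far above this in every sample.

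Some features limit these samples as a model. The construct is driven by the human synapsin promoter, needs Flp for its expression and is removed by Cre, which in this genotype marks cortical pyramidal cells. Both groups carry the receptor, and CNO without the receptor was not analysed here. In a pulldown of this kind, fewer cells of a type and less RNA per cell cannot be told apart.

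Neuropeptides and granins are made as long precursors that enter dense-core vesicles and are cut there. The prohormone convertases PC1/3 (Pcsk1) and PC2 (Pcsk2) cut at pairs of basic residues, and proSAAS (Pcsk1n) is known as an inhibitor of PC1/3. Carboxypeptidase E (Cpe) trims the basic residues that are left and peptidylglycine alpha-amidating monooxygenase (Pam) amidates the C terminus, which many peptides need for activity. CAPS1 (Cadps) and CAPS2 (Cadps2) prime dense-core vesicles for release triggered by calcium. IA-2 (Ptprn) and IA-2beta (Ptprn2) are phosphatase-like proteins of the vesicle membrane, and furin is a convertase of the trans-Golgi network that serves the constitutive pathway.

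Promoter sequences are shown for the convertase pair and for the inhibitor, because activity-regulated genes are often read through cAMP response elements or AP-1 sites. These 3 promoters differ in exact letter matches to both. RefSeq windows of 250 bases before to 50 bases after the start site (GRCm38.p6) matched 9 of the 10 genes. The letters TGACGTCA (cAMP response element) and TGANTCA (AP-1) were searched on both strands, and the patterns do not overlap in the matches found. Capitals mark the match.
Pcsk1 (chr13:75089607-75089906, plus strand): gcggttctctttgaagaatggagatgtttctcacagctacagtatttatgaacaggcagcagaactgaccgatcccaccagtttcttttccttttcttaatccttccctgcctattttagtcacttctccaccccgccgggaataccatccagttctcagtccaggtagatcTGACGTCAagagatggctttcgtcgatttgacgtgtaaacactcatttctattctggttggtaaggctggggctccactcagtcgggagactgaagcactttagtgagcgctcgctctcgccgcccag
Pcsk2 (chr2:143545883-143546182, plus strand): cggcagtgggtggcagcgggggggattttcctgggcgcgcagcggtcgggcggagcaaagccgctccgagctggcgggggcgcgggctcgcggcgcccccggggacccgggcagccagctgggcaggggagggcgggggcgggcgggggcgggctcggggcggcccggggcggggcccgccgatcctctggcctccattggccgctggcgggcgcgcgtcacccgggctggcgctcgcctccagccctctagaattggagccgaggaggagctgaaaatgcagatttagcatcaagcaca
Pcsk1n (chrX:7919572-7919871, plus strand): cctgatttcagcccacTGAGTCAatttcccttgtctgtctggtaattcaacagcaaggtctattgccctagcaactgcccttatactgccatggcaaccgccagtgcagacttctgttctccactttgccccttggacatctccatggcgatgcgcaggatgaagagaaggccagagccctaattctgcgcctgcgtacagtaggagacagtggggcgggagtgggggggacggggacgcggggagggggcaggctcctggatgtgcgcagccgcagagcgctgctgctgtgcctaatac

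The Pcsk1 window held 1 cAMP response element, which began 78 bases before the start, and no AP-1 match. The Pcsk1n window held 1 AP-1 match, 234 bases before the start, and no cAMP response element. Neither pattern was found in the Pcsk2 window, which was 76.3% G and C against 49.3% for Pcsk1, nor in the windows of Pam, Cadps, Cadps2, Ptprn, Ptprn2 and Furin. Of all 32851 windows in the table, 1.79% held TGACGTCA and 7.81% held TGANTCA. These matches describe letters and do not show that a factor binds there. The window of Fos, a gene induced by activity, was searched in the same way and held neither pattern. A window without these exact letters can therefore belong to such a gene.

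The genes differed widely in level. In TPM, a scale that divides counts by transcript length and can be compared between genes, Cpe had the highest mean (1936 TPM over the 8 samples, above 99.9% of the 17495 genes tested) and Pcsk1 the lowest (10.0 TPM, above 44.8%). The ratio of these means was 193. Between them came Pcsk1n (403 TPM), Cadps (162 TPM), Pam (84.3 TPM), Cadps2 (77.2 TPM), Ptprn (71.8 TPM), Pcsk2 (68.7 TPM), Ptprn2 (15.2 TPM) and Furin (13.7 TPM). The steps from Cpe to Pcsk1n, from Pcsk1n to Cadps and from Cadps to Pam were larger than the spread, since the TPM ranges of the 8 samples did not overlap. Pam, Cadps2, Ptprn and Pcsk2 could not be ordered in this way. Neighbours in this run had overlapping ranges, and Cadps2 was above Ptprn in 5 of 8 samples. Pcsk2 was above Ptprn2 in all 8 samples without overlap, whereas Ptprn2, Furin and Pcsk1 overlapped their neighbours. The summed level of the 10 genes was 2663 to 2984 TPM in the CNO samples and 2821 to 3093 TPM in the vehicle samples.

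**Figure D1:**
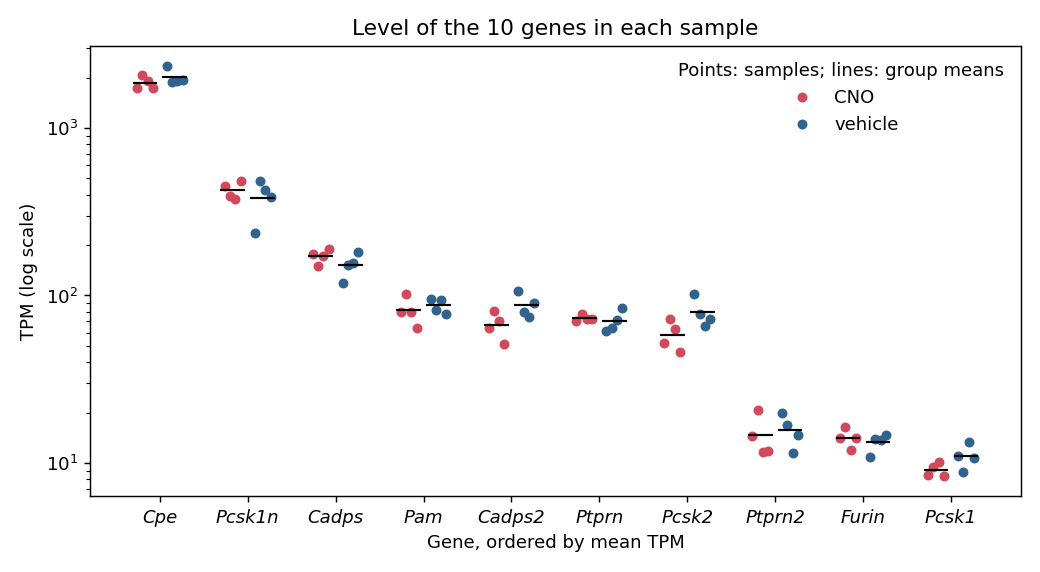
TPM (log axis) of the 10 genes in the 4 CNO samples and the 4 vehicle samples, with each point a sample and each line a group mean. Cpe stands near 1936 TPM and Pcsk1 near 10.0 TPM, and the groups overlap in TPM for each of the 10 genes.

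Markers of cell types were read before the comparison. PV interneuron markers were high, with Pvalb at 907 TPM and Gad1, the most abundant of its list, at 1227 TPM. Markers of pyramidal cells, in which Cre should have removed the construct, were also high. The glutamate transporter Slc17a7 was at 433 TPM and Nrgn, the most abundant of the pyramidal list, at 959 TPM. A PV marker index was taken as the average log2 CPM over 9 markers of PV interneurons less that over 9 markers of pyramidal cells, and it was 1.62, 0.84, 1.38 and 2.02 in CNO replicates 1 to 4. It was -0.45, 1.02, 1.44 and 1.30 in vehicle replicates 1 to 4. Vehicle replicate 1 stood apart, with a summed 1164 TPM of PV interneuron markers where the other 7 samples had 2515 to 3903 TPM, and with 2212 TPM of pyramidal markers where the others had 1370 to 2088 TPM. All 9 PV interneuron markers were on average higher with CNO, although Gad2 alone had an unadjusted p under 0.05, and 8 of 9 pyramidal markers were lower with none under it. Astrocyte (5 of 6), oligodendrocyte (5 of 5), microglia (5 of 5) and other interneuron markers (4 of 6) were mostly lower with CNO, with P2ry12, Lamp5 and Reln at an unadjusted p under 0.05, and all 4 endothelial markers were higher. Their summed levels were 186 to 338 TPM for astrocytes, 499 to 924 TPM for oligodendrocytes, 37.4 to 71.1 TPM for microglia, 308 to 463 TPM for other interneurons and 21.6 to 62.2 TPM for endothelial cells, and no marker of these lists was at 0. The log2 fold changes of the 10 genes and their ratios are therefore given with and without vehicle replicate 1.

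Fos and Fosb, transcription factor genes induced by activity, were higher with CNO, by 1.93 ± 0.22 and 1.88 ± 0.26 (log2 fold change ± SE, n = 4 per group). Their adjusted p-values in edgeR's quasi-likelihood test were 0.052 and 0.123. Dusp1, a phosphatase of MAP kinases, was higher by 1.17 ± 0.19 (adjusted p = 0.239 in the same edgeR test). Groups did not overlap for these 3 genes, and each passed an adjusted p of 0.05 with edgeR's robust dispersion and with DESeq2. Nr4a1 differed by 0.68 ± 0.22 and Npas4 by 0.15 ± 0.28. Rpl10a and Chrm3, the genes nearest to the coding parts of the construct, differed by 0.47 ± 0.32 and 0.32 ± 0.21, and whether their counts hold reads of the construct was not tested. With the PV marker index in the model they differed by 0.0007 and 0.0054, and without vehicle replicate 1 by 0.21 and 0.13.

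No gene among the 17495 tested (0%) passed an adjusted p of 0.05 in the edgeR quasi-likelihood test, while 716 (4.09%) had an unadjusted p under 0.05 and the other tools called 15 (edgeR, robust dispersion with a likelihood ratio test) and 11 (DESeq2). None of the 10 genes was among these 15 or 11. The study itself used edgeR with robust dispersion and reported differentially expressed genes at a false discovery rate under 0.05. With CNO 5 of the 10 were higher and 5 lower. Their median log2 fold change was 0.011, beside 0.0014 for all genes tested. Pcsk2 and Cadps2 had an unadjusted p under 0.05, and both were lower with CNO. That is 2 of 10 genes beside the 4.09% of all genes, with an adjusted p of 0.817 for each (edgeR quasi-likelihood test).

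**Figure D2:**
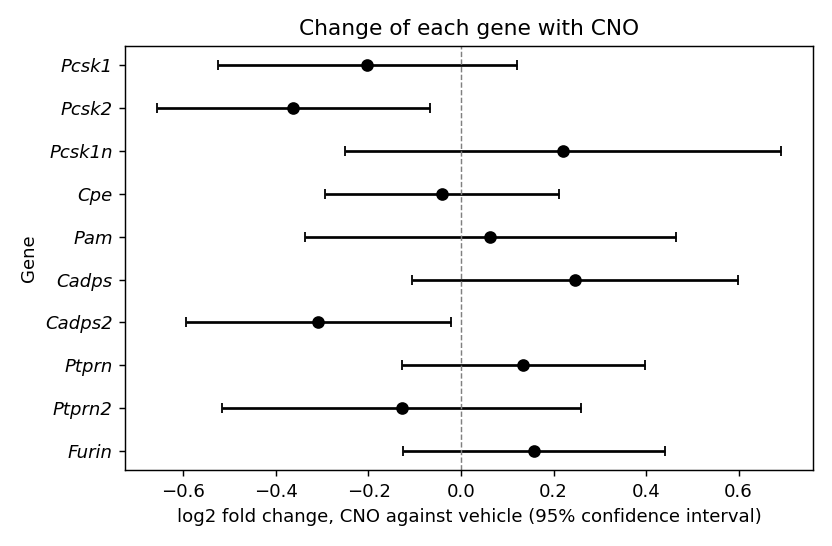
Log2 fold change of each gene, CNO against vehicle, with its 95% confidence interval from the quasi-likelihood fit to 4 samples per group. The intervals of Pcsk2 (-0.66 to -0.066) and Cadps2 (-0.59 to -0.022) lie below 0 and those of the other 8 genes include 0.

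Both convertases of the vesicle had a lower mean level with CNO, and Pcsk2, not Pcsk1, reached an unadjusted p under 0.05. Normalised Pcsk2 levels were 109, 137, 134 and 101 CPM in CNO replicates 1 to 4 and 185, 151, 137 and 144 CPM in vehicle replicates 1 to 4. All 4 CNO samples lay below the lowest vehicle sample, but the nearest pair, CNO replicate 2 (136.8 CPM) and vehicle replicate 3 (137.2 CPM), almost touched, and in TPM the groups overlapped. Groups separate in this way for 2.42% of all genes tested. The log2 fold change was -0.36 ± 0.13 (unadjusted p = 0.0209 in the edgeR fit), a level 0.778 times that of vehicle with a 95% confidence interval of 0.634 to 0.955. Without vehicle replicate 1 it was -0.27 (unadjusted p = 0.056, edgeR). Pcsk2 (chr2:143546156-143816285, plus strand, GRCm38) has exons that share 260 and 99 bases with the antisense genes Pcsk2os1 and Pcsk2os2, and the library kit keeps no strand, so reads from those bases cannot be assigned.

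Pcsk1 (chr13:75089826-75134861, plus strand) was found at 9.75, 9.95, 11.5 and 9.91 CPM with CNO and at 10.8, 9.54, 15.2 and 11.8 CPM with vehicle. The groups overlapped, with vehicle replicate 3 the highest of the 8 samples and vehicle replicate 2 the lowest. The log2 fold change was -0.20 ± 0.15, with an interval of -0.53 to 0.12 that includes no change. Without vehicle replicate 3 it was -0.058, and without vehicle replicate 1 it was -0.25. Furin, the convertase of the constitutive pathway (chr7:80388585-80405436, minus strand), ranged from 23.0 to 29.1 CPM with CNO and from 18.5 to 26.5 CPM with vehicle. Its 3 highest samples were CNO samples and its lowest was vehicle replicate 1. The log2 fold change was 0.16 ± 0.13, and without vehicle replicate 1 it was 0.048.

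The inhibitor Pcsk1n (chrX:7919822-7924410, plus strand) had a mean of 404 ± 58.8 CPM with CNO and 347 ± 104 CPM with vehicle (SD, n = 4). The single values were 431, 349, 363 and 474 CPM with CNO and 202, 437, 402 and 347 CPM with vehicle. Vehicle replicate 1 was the lowest by far, and the other 7 samples were interleaved. The log2 fold change was 0.22 ± 0.21 (interval -0.25 to 0.69), and without vehicle replicate 1 it was 0.027. It was 0.35 without vehicle replicate 2 and 0.13 without CNO replicate 4.

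Cpe (chr8:64592542-64693054, minus strand), the trimming enzyme and the most abundant of the 10, was also the steadiest. Its level was 1573, 1731, 1746 and 1620.4 CPM with CNO and 1886, 1629.8, 1702 and 1644 CPM with vehicle. The groups overlapped, and the log2 fold change of -0.041 ± 0.11 had a 95% confidence interval of -0.29 to 0.21, that is, 0.816 to 1.16 times the vehicle level. It was 0.0045 without vehicle replicate 1. The amidating enzyme Pam (chr1:97795114-98095646, minus strand) was at 84.0, 97.1, 109 and 98.5 CPM with CNO and at 76.6, 68.5, 130.1 and 97.2 CPM with vehicle. Its log2 fold change was 0.064 ± 0.18, and the vehicle samples alone spanned the range of the CNO samples. It was -0.022 without vehicle replicate 1 and 0.27 without vehicle replicate 3.

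The priming factors differed from vehicle in opposite directions, and neither passed an adjusted p of 0.05. Cadps2 (chr6:23262773-23839421, minus strand) was at 133, 155, 148 and 112 CPM with CNO and at 196, 154, 152 and 177 CPM with vehicle. CNO replicate 2 lay above 2 of the vehicle samples, so the groups overlapped. The log2 fold change was -0.31 ± 0.13 (unadjusted p = 0.0371 in the edgeR fit), and without vehicle replicate 1 it was -0.24 (unadjusted p = 0.0919, edgeR). Cadps (chr14:12372563-12823079, minus strand) was at 448, 349, 432 and 493 CPM with CNO and at 269, 362, 388 and 433 CPM with vehicle. CNO replicates 1 and 4 were above all vehicle samples, vehicle replicate 1 was the lowest, and the log2 fold change was 0.25 ± 0.16 (unadjusted p = 0.153, edgeR). Without vehicle replicate 1 it was 0.12 (unadjusted p = 0.36, edgeR).

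The phosphatase-like proteins of the vesicle membrane did not differ beyond the spread. Ptprn (chr1:75247027-75264502, minus strand) ranged from 106 to 112 CPM with CNO and from 82.9 to 121 CPM with vehicle, so all CNO samples fell inside the vehicle range (log2 fold change 0.13 ± 0.12). Ptprn2 (chr12:116485720-117276849, plus strand) ranged from 16.1 to 25.5 CPM with CNO and from 16.3 to 25.8 CPM with vehicle (log2 fold change -0.13 ± 0.18). Without vehicle replicate 1 the log2 fold changes were 0.05 and -0.023. Ptprn ran up to 0.24 without vehicle replicate 4 (unadjusted p = 0.0521, edgeR), and Ptprn2 to -0.29 without CNO replicate 2 and -0.23 without vehicle replicate 3.

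Exons of Pcsk1n, Ptprn and Furin share 135, 189 and 118 bases with the opposite-strand genes Eras, Gm28294 and Gm44851, and reads from those stretches cannot be assigned either. Pam shares 188 exon bases with B230216N24Rik on its own strand.

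Ratios within a sample set related genes against each other. Pcsk1 stood at 0.160 ± 0.0218 of the TPM of Pcsk2 with CNO and at 0.144 ± 0.0438 with vehicle (SD, n = 4), and Cadps at 2.68 ± 0.76 times Cadps2 with CNO and 1.78 ± 0.454 times with vehicle. On the log2 scale the Cadps to Cadps2 ratio was 1.47, 0.90, 1.28 and 1.88 in CNO replicates 1 to 4 and 0.15, 0.93, 1.07 and 1.02 in vehicle replicates 1 to 4. CNO replicates 1, 3 and 4 exceeded all vehicle samples and CNO replicate 2 fell below 3 of them. The difference of the means was 0.59 (p = 0.114, two-sided exact permutation test over 70 assignments, 0.343 after Benjamini-Hochberg adjustment over the 4 ratios). The ratio of Pcsk1 to its inhibitor Pcsk1n differed by -0.45 (exact permutation p = 0.171, adjusted 0.343), that of Pcsk1 to Pcsk2 by 0.19 (exact permutation p = 0.457, adjusted 0.514) and that of Ptprn to Ptprn2 by 0.20 (exact permutation p = 0.514, adjusted 0.514). The smallest p that 4 samples against 4 allow is 0.0286. Without vehicle replicate 1, the differences were 0.38 for Cadps to Cadps2, -0.23 for Pcsk1 to Pcsk1n, 0.072 for Pcsk1 to Pcsk2 and 0.015 for Ptprn to Ptprn2. Without vehicle replicate 3 these last were 0.38 and 0.35.

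**Figure D3:**
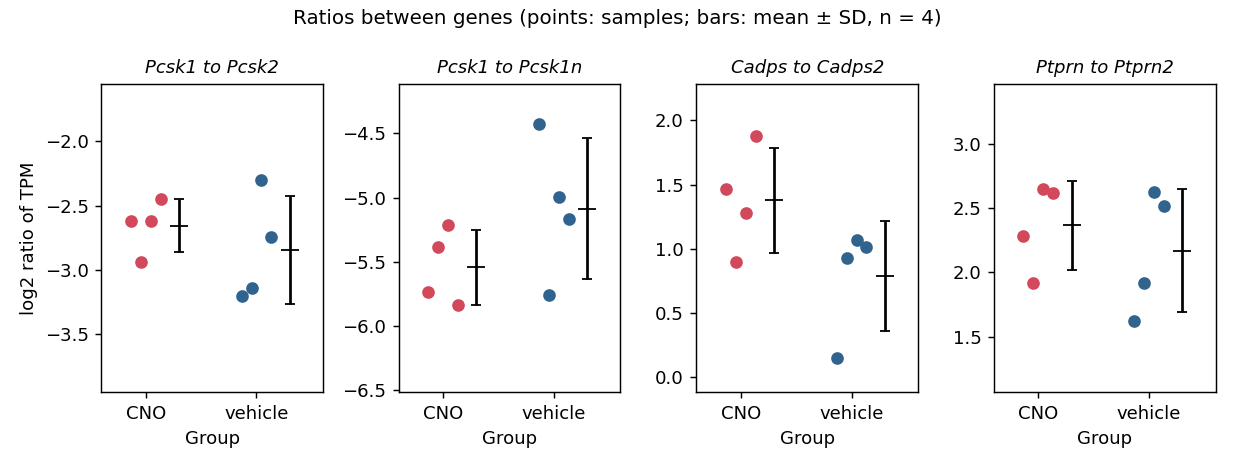
Log2 ratio of TPM for 4 pairs of genes, with points for the 4 CNO and 4 vehicle samples and bars for the group mean ± SD. The groups overlap in each pair, and the lowest Cadps to Cadps2 ratio (0.15) belongs to vehicle replicate 1.

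Several of the genes moved with the PV marker index across the samples. In an edgeR fit with the group and the index, 5 of the 10 had an index coefficient with an adjusted p under 0.05, as did 27.2% of all genes tested. Pcsk1n and Cadps were higher where PV interneuron markers were high, by 0.50 ± 0.086 and 0.35 ± 0.055 log2 units for each unit of the index (adjusted p = 0.00156 and 0.000927, edgeR). Pcsk2, Cadps2 and Ptprn2 were lower there, with coefficients of -0.26 ± 0.057, -0.22 ± 0.065 and -0.33 ± 0.095 (adjusted p = 0.00588, 0.0307 and 0.0253, edgeR). Pcsk2 and Pcsk1n thus had coefficients of opposite sign, as did the CAPS genes Cadps and Cadps2. Without vehicle replicate 1, 7.42% of all genes and 1 of the 10, Pcsk2, passed (-0.43 ± 0.10, adjusted p = 0.0388 in the edgeR fit). Cadps kept a coefficient of 0.38 ± 0.11 and Ptprn2 one of -0.60 ± 0.16 with adjusted p of 0.0597 and 0.0547 (edgeR). Cadps2 was at -0.38 ± 0.12 (adjusted p = 0.0873, edgeR), and Pcsk1n fell to 0.27 ± 0.14 (adjusted p = 0.235, edgeR).

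**Figure D4:**
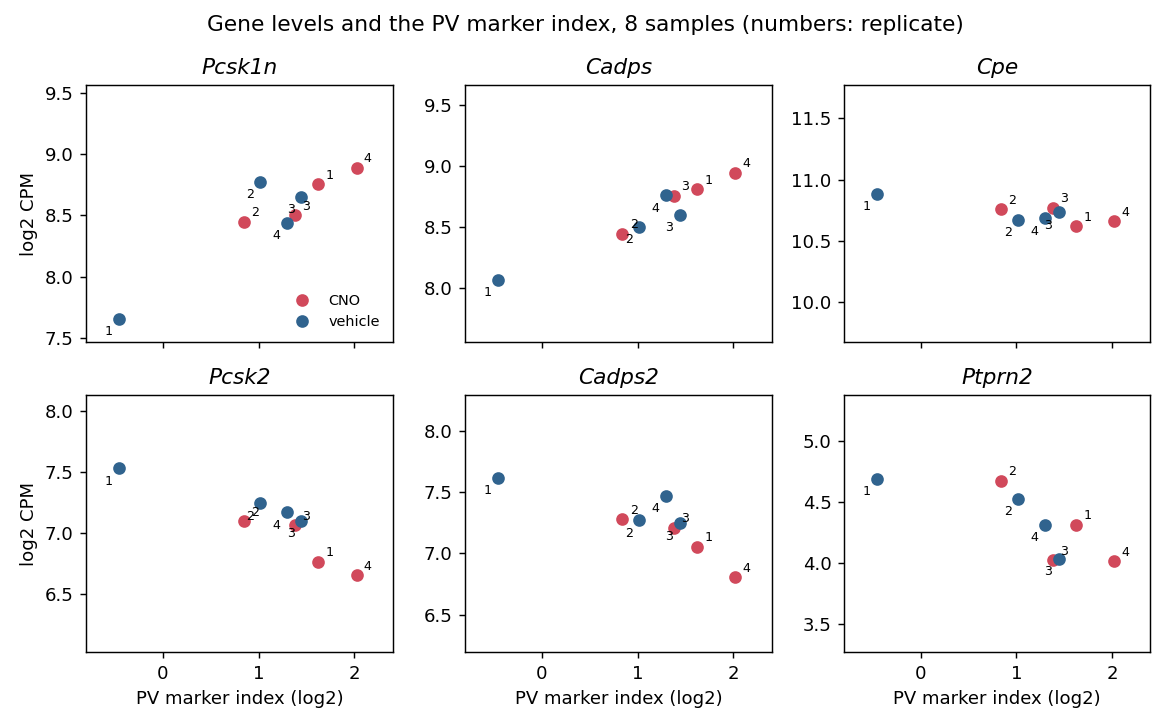
Log2 CPM of 6 genes against the PV marker index (log2 units) in the 8 samples, numbered by replicate, on vertical axes of equal span. Pcsk1n and Cadps rise from left to right, Pcsk2, Cadps2 and Ptprn2 fall, Cpe is nearly level, and vehicle replicate 1 lies alone at -0.45.

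With the index in the model, the difference with CNO was -0.20 for Pcsk2 (unadjusted p = 0.0288, edgeR), -0.17 for Cadps2 (unadjusted p = 0.0791, edgeR) and 0.033 for Cadps. Pcsk1n and Ptprn2 changed sign, to -0.059 and 0.081. What part of the group differences comes from the makeup of the pulldown was not tested.

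Salmon gives a length to each gene from the isoforms it assigns reads to, and the ratio of count to TPM shows that length. Divided by the median gene of each sample, it was steady for most of the 10, with a highest value within 1.04 times the lowest for 8 of them (the median over 15123 genes was 1.07). Ptprn2 (1.11) and Pam (1.66) were the exceptions. Pam has 6 annotated coding transcripts of 560 to 4102 bases, and its relative length was 0.992, 0.990, 1.30 and 1.40 in CNO replicates 1 to 4 and 0.865, 0.843, 1.34 and 1.27 in vehicle replicates 1 to 4. Replicates 1 and 2 of both groups were low and replicates 3 and 4 high, a separation that 5.58% of genes had. Its span exceeded that of 97.6% of genes. Pcsk2 also separated in this way, but by little (median 1.97 against 2.02). In counts, Pam was higher in replicates 3 and 4 by 0.42 ± 0.13 log2 units (unadjusted p = 0.00899 in the edgeR fit, adjusted 0.164). Ptprn2 was lower there, with a coefficient of -0.46 ± 0.11 (unadjusted p = 0.00178, adjusted 0.0845, edgeR), and none of the 10 passed the adjusted p of 0.05 that 0.812% of genes passed. In TPM Pam did not divide so, at 80.2, 102, 79.6 and 64.0 TPM with CNO and 95.6, 82.4, 93.5 and 77.2 TPM with vehicle.

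Ptprn2 was the only one of the 10 whose implied length separated the treatment groups, at 1.29 ± 0.034 with CNO and 1.37 ± 0.016 with vehicle (SD, n = 4). All 4 CNO samples were below all 4 vehicle samples, as for 1.24% of genes in either direction, but the groups overlapped when the ratio was not divided by the sample median. The annotation used here lists 1 coding transcript of Ptprn2.

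**Figure D5:**
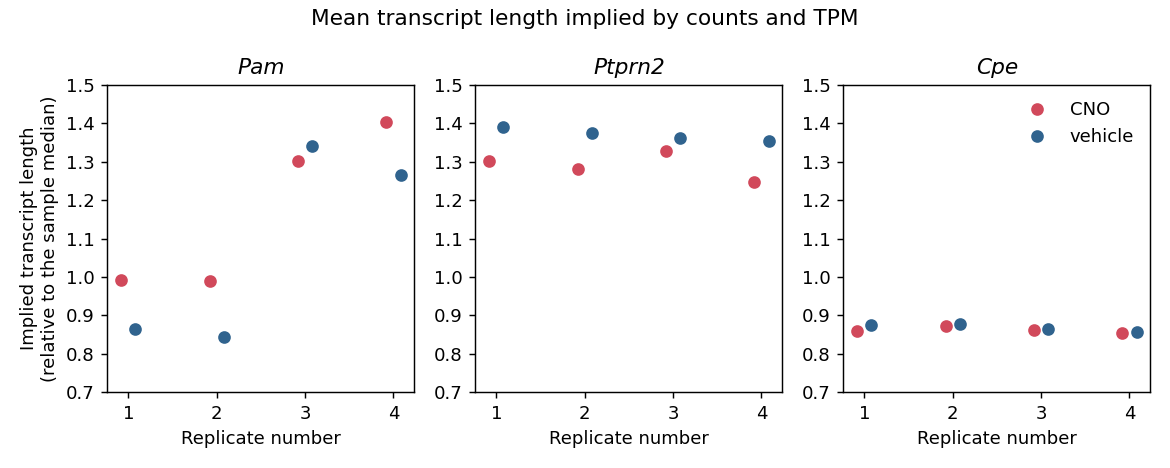
Mean transcript length implied by counts and TPM, relative to the sample median, for Pam, Ptprn2 and Cpe in each replicate of the CNO and vehicle groups. Pam steps up between replicates 1 and 2 (0.843 to 0.992) and replicates 3 and 4 (1.27 to 1.40), Ptprn2 is lower with CNO in each sample, and Cpe is level.

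Other genes of the pathway were read from lists by function. All 6 granins and their chaperones were higher on average with CNO, and 2 of them had an unadjusted p under 0.05, beside 4.09% of all genes tested. These were Scg2 (0.63 ± 0.22, unadjusted p = 0.0165, edgeR) and Vgf (0.58 ± 0.20, unadjusted p = 0.0153, edgeR), precursors of secreted peptides that the study singled out on these samples, so that their count is not independent evidence. Both had an adjusted p of 0.817 (edgeR). With the PV marker index in the model they were 0.30 and 0.29, and with a surrogate variable 0.29 and 0.29. The study called Scg2 and Vgf differentially expressed. By in situ hybridization in CNO-treated mice, it also reported more mRNA of both in PV+ interneurons with the receptor than in uninfected neighbours. The most abundant of the list were Scg5, the PC2 chaperone 7B2 (333 TPM, 0.20 ± 0.19), and Chgb (185 TPM, 0.26 ± 0.20). Without vehicle replicate 1 these were 0.036 and 0.095, without CNO replicate 4 they were 0.091 and 0.12, and with the index in the model they turned to -0.077 and -0.035.

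Of 13 further processing enzymes 12 were tested, 4 higher and 8 lower. The glutaminyl cyclase Qpct, named after its values were seen, had groups that did not overlap, as for 2.42% of all genes tested. Its log2 fold change was -0.42 ± 0.22 (unadjusted p = 0.0867, adjusted p = 0.817, edgeR). Rnpep and Ctsl were the most abundant, at -0.13 ± 0.11 and 0.17 ± 0.21 (-0.029 and -0.027 without vehicle replicate 1). Among 12 neuropeptide precursors 6 were higher and 6 lower, with 1 of each at an unadjusted p under 0.05, beside 4.09% of all genes tested. Cort, which encodes cortistatin, was higher (1.08 ± 0.35, unadjusted p = 0.0102, edgeR), Penk, which encodes the enkephalins, was lower (-0.68 ± 0.22, unadjusted p = 0.0102, edgeR), and the abundant Cck and Sst differed by -0.18 ± 0.12 (-0.094 without vehicle replicate 2) and 0.11 ± 0.17 (-0.029 without vehicle replicate 1). The adjusted p was 0.864 for Sst and 0.817 for the other 3 (edgeR). With the index in the model Cort was at 0.59 and Penk at -0.81. Cort was low in counts, with a mean of 4.67 CPM with CNO and 2.20 CPM with vehicle.

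Genes of vesicle biogenesis and transport split 7 higher and 3 lower of 10, with none at an unadjusted p under 0.05. The small GTPase Rab2a and the kinesin Kif1a, which carries dense-core vesicles, were the most abundant (0.14 ± 0.12 and 0.065 ± 0.16, or 0.078 and -0.046 without vehicle replicate 1). Of 16 docking and fusion genes 15 were tested, 8 higher and 7 lower. The calcium sensor Syt10, at 2.67 TPM, was the 1 gene of these 15 with an unadjusted p under 0.05, beside 4.09% of all genes (-0.59 ± 0.21, unadjusted p = 0.0186, adjusted p = 0.817, edgeR), and the abundant Snap25 and Rab3a differed by 0.26 ± 0.20 and 0.23 ± 0.17 (0.11 and 0.094 without vehicle replicate 1, 0.17 and 0.15 without CNO replicate 4). Of 9 furin substrates 1 was higher and 8 were lower, none at an unadjusted p under 0.05, with Bace1 at 0.13 ± 0.12 (0.038 without vehicle replicate 1) and Insr at -0.29 ± 0.13.

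For each of the 10, the gene with the most similar profile was sought among 15173 genes with a mean above 1 TPM, by the root mean square difference of mean-centred log2 CPM over the 8 samples. Cpe was closest to Lrp6 (0.0218) and Pcsk2 to Thsd7b (0.0283). Cpe itself varied less, with a root mean square about its mean of 0.0769 against 0.254 for Pcsk2. The differences therefore do not rank how well the matches follow each gene. Cadps was closest to Nptn (0.0404), Ptprn to Ube2o (0.0434), Pcsk1n to Tm2d3 (0.056) and Cadps2 to Sh3d19 (0.0576). For Pcsk1 it was 4933404O12Rik (0.0595), for Furin Ldhd (0.0613), for Ptprn2 Ccdc88a (0.069) and for Pam Naf1 (0.109). None of the 10 had another of the 10 as its nearest gene, which among 15173 candidates says little about whether they varied together.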

How the data were processed

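Ribosome-associated mRNA was measured by paired-end RNA-seq in 4 CNO and 4 vehicle samples. The authors used Trim Galore for trimming, STAR for alignment to GRCm38/mm10, and Salmon with tximport for estimated counts per gene. The deposited estimated counts were neither normalized nor filtered, and the deposited TPM values were scaled by transcript length. Counts were rounded and fitted in edgeR 4.0.16 (R 4.3.3) without genes that had fewer than 10 counts in at least 4 samples, with TMM normalization, the quasi-likelihood test and Benjamini-Hochberg adjustment over 17495 genes. CPM are TMM-normalized. Log2 CPM used a prior count of 2. The replicates were pools of brains, so p-values measure the spread between pools. Ratios of TPM were compared by exact permutation (scipy 1.17.1).

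The 10 genes and all lists were chosen with earlier results of these data known. Genes named are the 10, in each pathway list those with an unadjusted p under 0.05 and the 2 of highest mean TPM, the activity and construct genes, and the nearest gene to each of the 10. Qpct was named outside these rules, after its values were seen. A gene of the list of further processing enzymes is not reported here by name. Alternatives were robust dispersion, DESeq2 1.42.0, other scalings and filters, limma 3.58.1 on log2(TPM + 1) and log2(TPM + 0.1), a replicate block, replicates 1 and 2 against 3 and 4, a surrogate variable (sva 3.50.0), the PV marker index and leaving out each sample. The coefficients of the index and of the replicate factor, and the split of implied length by replicate, were added after the data were seen. Annotation came from GENCODE M21, which holds 45143 of the 45706 gene identifiers.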

Additional observations from a re-analysis of the deposited data

Results flagged for a closer look

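In groups of 4 samples, 3 values lay far from the other 3 of their group relative to the range (a gap past Dixon's 95% limit), among 50 groups examined, and chance flags about 1 group in 20. Pcsk1 was high in CNO replicate 3, at 3.53 log2 CPM where the other CNO samples had 3.29 to 3.32. Furin was low in vehicle replicate 1, at 4.22 log2 CPM where the other vehicle samples had 4.65 to 4.73. The log2 ratio of Cadps to Cadps2 was also low in vehicle replicate 1, at 0.15 where the others had 0.93 to 1.07. This is the sample with the fewest PV interneuron markers, whose part in these values was not tested.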

How the results depend on the processing

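Of the 10 genes, Pcsk1, Pcsk2, Cadps, Cadps2, Ptprn and Furin kept their direction in all 21 alternatives, and none of the 10 passed an adjusted p of 0.05 in any. Pcsk2 ranged from -0.45 to -0.20 log2 units and had an unadjusted p under 0.05 in 18 of 21, Cadps2 from -0.40 to -0.17 in 14 of 21. The count of the 10 with an unadjusted p under 0.05 fell from 2 to 1 with the surrogate variable and with the PV marker index, and ran from 0 to 2 when a sample was left out: it was 0 without CNO replicate 1, CNO replicate 4 or vehicle replicate 1 and 1 without vehicle replicate 4. Genes in all with an unadjusted p under 0.05 numbered 1126 with no filter, 1193 with replicates 1 and 2 against 3 and 4 as a factor, and 318 to 1683 when a sample was left out (318 without CNO replicate 4, 396 without vehicle replicate 1, 1683 without CNO replicate 2). The median of the 10 genes was -0.11 in limma on log2(TPM + 1) and on log2(TPM + 0.1), scales on which the median of all genes was -0.063 and -0.077, and -0.071 to 0.059 when a sample was left out. Library size alone moved the median of all genes to -0.051. No gene of the 10 separated the groups by implied length (0) without division by the sample median.

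Directions turned mostly with the surrogate variable and the PV marker index, in that order: Pcsk1n to -0.012 and -0.059, Cpe to 0.011 and 0.025, Pam to -0.066 and -0.049, Ptprn2 to 0.11 and 0.081, Chgb to -0.022 and -0.035, Scg5 to -0.054 and -0.077, Ctsl to -0.12 and -0.14, Rnpep to 0.00499 and 0.013, Kif1a to -0.037 and -0.051, and Bace1 to -0.016 and -0.022. Snap25 turned to -0.0086 with the index. Pam also turned to -0.027 with the offset for implied length and to -0.11 in both limma fits, and Kif1a to -0.013 in both. When a sample was left out, Cpe ran from -0.078 to 0.0045, Pam from -0.063 to 0.27, Ctsl from -0.027 to 0.27, Kif1a from -0.046 to 0.21, Sst from -0.029 to 0.30 and Npas4 from -0.072 to 0.32. Scg5 ran from 0.036 to 0.30, Chgb from 0.095 to 0.37, Rab2a from 0.078 to 0.22 and Bace1 from 0.038 to 0.20. The cause was not tested.

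Same-numbered CNO and vehicle samples were at most weakly correlated (0.026, -0.03, 0.16 and 0.24 for numbers 1 to 4). The number was therefore not taken as a pairing. Differently numbered CNO and vehicle samples correlated positively within replicates 1 and 2 and within 3 and 4 (0.084 to 0.43). Between these sets all correlations were negative (-0.40 to -0.045). Both groups thus shared a split of replicates 1 and 2 from 3 and 4, whose cause was not tested. With the replicate block, 765 genes and 1 of the 10 (Pcsk2) had an unadjusted p under 0.05. The 4 ratios kept their direction in all 10 alternatives of each. Fos, Fosb and Dusp1 stayed above an adjusted p of 0.05 in 15, 16 and 17 of 21 alternatives and passed it in the others.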
